A study of Mus musculus with 12 samples.

Results

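The genes described here are 41 components of the B cell receptor signalling pathway, measured in germinal centre B cells of mouse spleen. They were chosen by name, from the receptor's signal chains to the phosphatases and ubiquitin ligases that end the signal, and for each gene the probe set with the highest mean over the 12 arrays was taken from those annotated to a single gene symbol. The list was drawn up with earlier results of these data known, so its shares beside those of all genes are not an independent test. Such a probe set was found for 39 of the 41, of 19938 genes on the array that had one. The kinase Lyn and the calcium channel Itpr1 had none and are not analysed here. Vav3 lay below the array median on all 12 arrays and was not tested, which left 38 of the 41 among the 11206 genes tested.

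The study compared light zone (LZ) with dark zone (DZ) cells and cells of high with cells of low affinity. All cells came from SwHEL mice, whose B cells carry a receptor for hen egg lysozyme, bore the congenic marker CD45.1, and had been transferred into C57BL/6J recipients with the CD45.2 marker. The animals were female and were immunised with sheep red blood cells coupled to HEL3x, a mutant of hen egg lysozyme. On day 10, donor germinal centre cells (CD45.1+, CD45.2-, IgG1+, CD38 low) were sorted into high-affinity LZ, low-affinity LZ, high-affinity DZ and low-affinity DZ cells, with 3 arrays each. LZ cells were CD86 high and CXCR4 low, DZ cells were CXCR4 high and CD86 low, and the labels do not give the gate for affinity. Every group therefore derived from the same transgenic receptor and had the same class-switched isotype, and the labels name no depletion of the recipients' own lymphocytes.

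The B cell receptor is a membrane immunoglobulin that signals through Cd79a and Cd79b. Antigen binding lets Src family kinases phosphorylate both chains, Syk then docks there, and adaptors such as Blnk assemble Btk and phospholipase C gamma into a complex that raises calcium and diacylglycerol, which in turn drive NFAT, Ras and NF-kB. Coreceptors lower the threshold of this signal, and phosphatases and ubiquitin ligases end it. In the germinal centre, DZ cells divide and mutate their receptors, and LZ cells test them on antigen held by follicular dendritic cells.

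Values are log2 RMA values, array signals on a log scale that the authors normalised, so that a difference of 1 is a 2-fold change. They cannot be compared between genes, because each probe set has its own response. Array medians lay between 5.57 and 5.72, and pairs of arrays correlated at 0.951 to 0.993 over all probe sets. The high-affinity LZ array of matched set 3 stood apart from the others, with a mean correlation of 0.963 where the next lowest array had 0.973. The 3 arrays of each group belong to 3 matched sets that share a suffix in the sample descriptions, and the main test ignored this whereas a second one took the set as a block. B cell identity was evident: 6 of 6 B cell markers and 4 of 4 germinal centre markers with a probe set exceeded the array median on all 12 arrays. The sort genes followed the gates, since Cd86 averaged 10.89 and 11.03 in high- and low-affinity LZ cells, against 9.42 and 10.23 in high- and low-affinity DZ cells. The labels do not state that arrays within a group are from different animals. P-values cover the spread among these arrays, which may be technical.

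**Figure D1:**
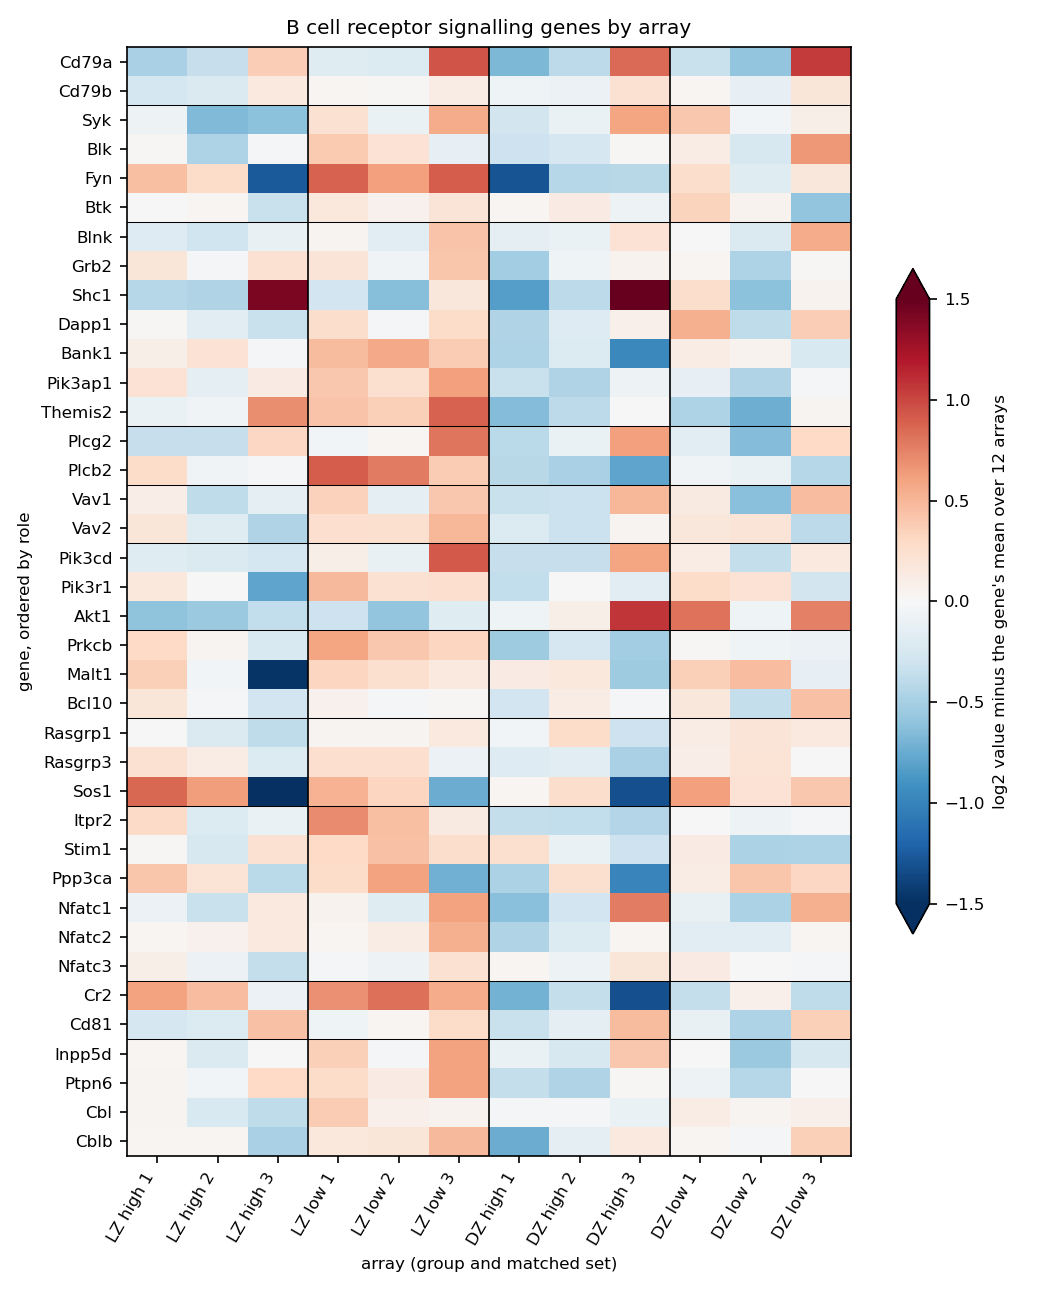
Log2 value of each of the 38 tested genes (rows, ordered by role, with lines between roles) on each of the 12 arrays (columns), minus that gene's mean over the arrays. Cr2, Plcb2 and Bank1 are red across most LZ columns, Akt1 is red or near white in DZ columns, and Cd79a, Shc1 and Sos1 differ between the array of set 3 and the arrays of sets 1 and 2 within most groups.

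Between zones, few of the pathway's genes passed the test. Those that did were the coreceptor gene Cr2, the phospholipase gene Plcb2, 3 adaptor genes and Akt1. Plcg2, the phospholipase gene directly downstream of the receptor, was not among them, nor were any of the 2 receptor chains and 4 early kinases tested. Over both affinities, limma called 2 of 38 genes, Cr2 and Plcb2, and both rose in LZ cells, where 0.419% of all genes tested were called and 0.232% were called as higher. With the matched set as a block, 6 of 38 were called, of which 5 rose and 1 fell, where 1.2% of all genes were called, 0.705% as higher and 0.5% as lower. The median difference over the 38 genes was 0.09, with 27 positive and 11 negative, and over all genes tested it was -0.00383, with 49% positive. By set, the median of the 38 was 0.27, 0.20 and -0.05, so set 3 went the other way. It was 0.02 in high-affinity and 0.19 in low-affinity cells. With 1 array left out, 10 to 18 of the 38 were negative. In these sorted bulk samples, fewer cells that express a gene and less RNA per cell cannot be told apart. Of the macrophage markers, 4 of 4 tested were higher in LZ cells (median 0.13, and -0.08, 0.55 and 0.33 by set), with 0 called. Cd68 averaged 7.46 and 8.08 in high- and low-affinity LZ cells, against 7.02 and 7.21 in DZ cells. Granulocyte markers were higher for 2 of 6 (median -0.04), with 0 of 6 at high and 5 of 6 at low affinity. Follicular dendritic and stromal markers were higher for 0 of 2 tested, Col1a1 and Col3a1. Of the same list, Clu, Cxcl13 and Pdgfrb were at or above the array median on 0 arrays and Madcam1 on 1. These were too dim to test. The part of these cells in the zone differences was not tested.

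Cr2, which encodes the complement receptors CD21 and CD35 that join antigen-bound complement to the coreceptor, showed the largest zone difference of the 38. Its log2 values were 10.54, 10.40 and 9.85 in high-affinity LZ cells and 10.62, 10.76 and 10.49 in low-affinity LZ cells, against 9.23, 9.58 and 8.62 in high-affinity DZ cells and 9.57, 10.01 and 9.55 in low-affinity DZ cells. Every LZ array but that of the high-affinity set 3 lay above every DZ array. Over both affinities, Cr2 was 1.02 ± 0.18 (SE) higher in LZ cells, with differences of 1.18, 0.79 and 1.08 in the 3 matched sets (limma, adjusted p = 0.0427, and 0.00598 with the block). The call was kept in 2 of the 12 fits without a block that each left out 1 array (adjusted p 0.0263 to 0.126), and in 12 of 12 with the block (0.00832 to 0.0298). Cd81, the tetraspanin of the same coreceptor complex, differed by 0.07 ± 0.20 (SE, adjusted p = 0.999), with values between 10.15 and 11.10 over all arrays.

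Plcb2, a phospholipase C of the beta class best known as an effector of G protein-coupled receptors, was the gene whose zones separated fully in the upward direction. Its values were 7.18, 6.86 and 6.89 in high-affinity LZ cells and 7.82, 7.69 and 7.29 in low-affinity LZ cells, against 6.49, 6.42 and 6.12 in high-affinity DZ cells and 6.85, 6.81 and 6.49 in low-affinity DZ cells. The lowest of the 6 LZ arrays, at 6.86, lay just above the highest of the 6 DZ arrays, at 6.85. A full separation of this kind in the upward direction was seen for 1 of the 38 genes and 0.535% of all genes. The difference was 0.76 ± 0.13 (SE), with 0.83, 0.65 and 0.79 in the 3 sets (adjusted p = 0.0371, and 0.00598 with the block). Leaving out 1 array at a time kept the call in 2 of 12 fits without the block (0.0346 to 0.12) and in 12 of 12 with it (0.00955 to 0.0368). Plcg2, the phospholipase that Btk and Syk activate downstream of the receptor itself, differed by 0.13 ± 0.24 (SE, adjusted p = 0.999).

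Among the 7 adaptors, Themis2, Bank1 and Pik3ap1 rose in LZ cells in the fit with the block and did not pass without it. Themis2, an adaptor that binds Grb2, had values of 8.28, 8.33 and 9.08 in high-affinity LZ cells and 8.81, 8.74 and 9.27 in low-affinity LZ cells, against 7.73, 7.99 and 8.38 in high-affinity DZ cells and 7.92, 7.65 and 8.42 in low-affinity DZ cells. Matched set 3 was highest within each group, and inside each set both LZ arrays exceeded both DZ arrays. The set differences of 0.72, 0.71 and 0.77 averaged 0.74 ± 0.20 (SE, adjusted p = 0.208, and 0.00891 with the block). With the block, 11 of the 12 fits that left out 1 array kept the Themis2 call (adjusted p 0.0174 to 0.0538).

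Bank1, a scaffold that ties Src family kinases to calcium release, had values of 10.87, 11.01 and 10.76 in high-affinity LZ cells and 11.27, 11.36 and 11.17 in low-affinity LZ cells, against 10.32, 10.59 and 9.83 in high-affinity DZ cells and 10.90, 10.84 and 10.56 in low-affinity DZ cells. LZ and DZ ranges overlapped over both affinities but were separate within high and within low affinity. The difference was 0.57 ± 0.14 (SE), with 0.46, 0.47 and 0.77 by set (adjusted p = 0.147, and 0.0354 with the block). Pik3ap1, the adaptor BCAP that recruits phosphoinositide 3-kinase (PI3K), had values of 10.83, 10.48 and 10.75 in high-affinity LZ cells and 11.02, 10.86 and 11.23 in low-affinity LZ cells, against 10.28, 10.17 and 10.54 in high-affinity DZ cells and 10.49, 10.17 and 10.59 in low-affinity DZ cells. Its low-affinity arrays separated by zone, and its high-affinity arrays overlapped by 1 pair, in that the LZ array of set 2 lay below the DZ array of set 3. Pik3ap1 was 0.49 ± 0.12 (SE) higher in LZ cells, with 0.53, 0.50 and 0.43 by set (adjusted p = 0.185, and 0.0366 with the block). Both calls were less stable than that of Themis2: with the block, 2 of 12 fits that left out an array kept Bank1 and 1 of 12 kept Pik3ap1. The other 4 adaptors did not pass in either fit. Grb2, which brings Sos to the membrane, differed by 0.32 ± 0.14 (SE), and Blnk, the lipid-binding adaptor gene Dapp1 and Shc1, a further partner of Grb2, lay between -0.10 and 0.01.

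Akt1, the kinase that PI3K activates, was the gene that went the other way. It had values of 7.80, 7.85 and 8.03 in high-affinity LZ cells and 8.09, 7.81 and 8.22 in low-affinity LZ cells, against 8.34, 8.49 and 9.48 in high-affinity DZ cells and 9.22, 8.33 and 9.16 in low-affinity DZ cells. All 6 LZ arrays, at 7.80 to 8.22, lay below all 6 DZ arrays, at 8.33 to 9.48, a separation in the downward direction seen for 1 of the 38 genes and 0.455% of all genes. The difference was -0.87 ± 0.22 (SE), with -0.83, -0.58 and -1.19 in the 3 sets. It did not pass without the block (adjusted p = 0.174) and fell in LZ cells with it (0.0405), though 2 of 12 fits with the block that left out an array kept the call (0.0286 to 0.123). The catalytic subunit gene Pik3cd and the regulatory subunit gene Pik3r1 differed by 0.07 and 0.11, with adjusted p of 0.999 each.

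**Figure D2:**
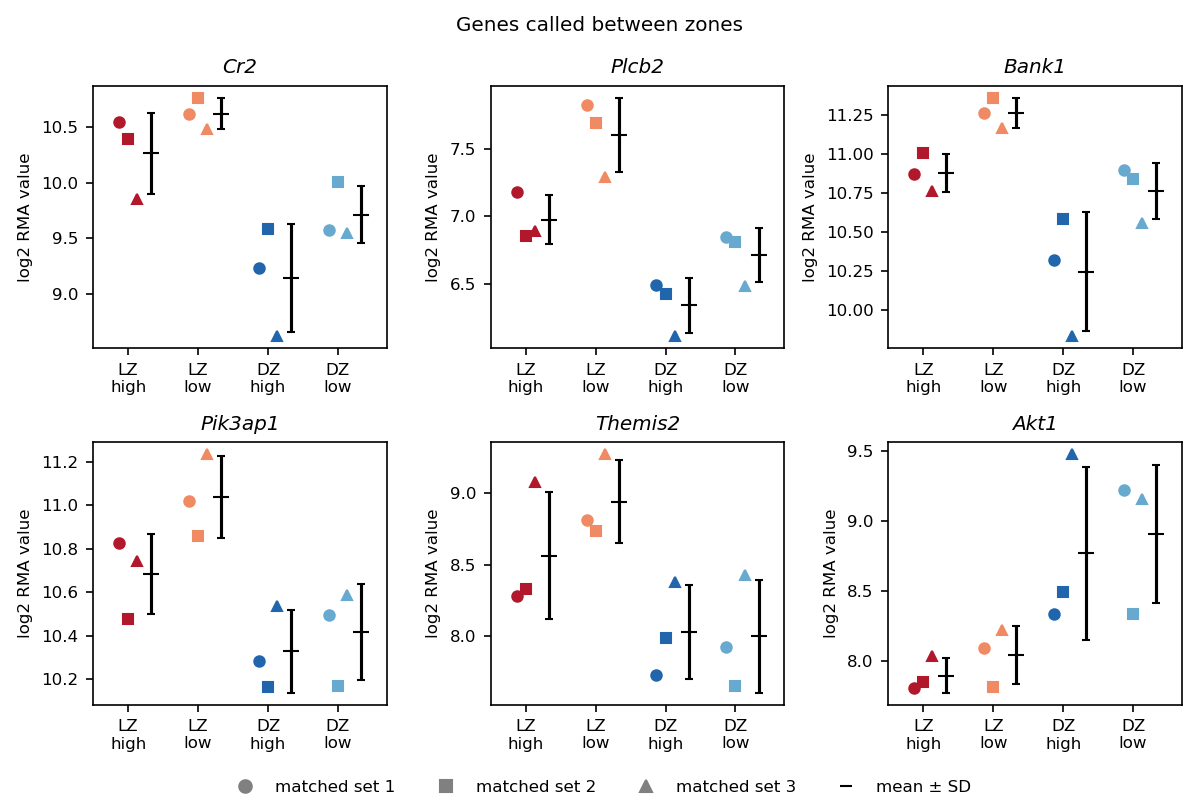
Log2 RMA values (vertical axes) of the 6 genes that passed between zones without or with the matched set as a block, in the 4 groups. Each symbol is 1 array, its shape is the matched set, and the bar beside each group is the mean ± SD of 3 arrays. Akt1 is the gene whose 6 LZ arrays all lie below its 6 DZ arrays, and Plcb2 the one whose 6 LZ arrays all lie above.

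The promoters of Cr2, Plcb2 and Themis2, the genes whose blocked call held in at least 11 of 12 fits without 1 array, are shown. These genes were picked by their calls in these data, and shared regulation was not tested. Each run is the 250 bases before the annotated start, in the direction of transcription, from RefSeq on GRCm38.p6, and all 3 genes lie on the minus strand. Cr2 covers chr1:195176720-195176969, Plcb2 chr2:118728439-118728688 and Themis2 chr4:132796365-132796614. Capitals mark matches, on either strand, to EGR (GCGNGGGCG), E-box (CAGGTG), PU.1 (GAGGAA), NFAT (GGAAAA) or NF-kB motifs.
Cr2: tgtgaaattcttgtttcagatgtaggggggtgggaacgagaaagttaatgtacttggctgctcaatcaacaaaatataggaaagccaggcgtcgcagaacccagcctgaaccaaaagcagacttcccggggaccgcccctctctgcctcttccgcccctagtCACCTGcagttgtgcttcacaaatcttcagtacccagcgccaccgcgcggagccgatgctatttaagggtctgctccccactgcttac
Plcb2: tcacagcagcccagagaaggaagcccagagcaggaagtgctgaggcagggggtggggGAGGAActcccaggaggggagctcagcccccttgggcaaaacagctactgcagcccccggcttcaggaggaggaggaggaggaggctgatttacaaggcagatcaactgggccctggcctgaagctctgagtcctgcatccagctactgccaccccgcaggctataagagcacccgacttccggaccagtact
Themis2: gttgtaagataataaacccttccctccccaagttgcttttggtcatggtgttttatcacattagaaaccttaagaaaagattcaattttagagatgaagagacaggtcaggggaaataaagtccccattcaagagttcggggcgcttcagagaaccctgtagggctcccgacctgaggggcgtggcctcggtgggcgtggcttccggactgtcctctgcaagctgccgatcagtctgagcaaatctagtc
The Cr2 window held 1 E-box, with its first base at -88 from the start, the Plcb2 window held 1 PU.1 motif, at -193, and none of the 5 motifs is in the Themis2 window. Over all genes of the list, 34 of 41 had a promoter entry, and a gene was counted once if any window before its alternative starts held the motif. The E-box occurred for 35.3% of these 34 genes and for 19.4% of the 27025 genes in the table, the PU.1 motif for 41.2% and 25.9%, and the EGR motif for 11.8% (4 genes, the untested Vav3 among them) and 5.33%. The NFAT motif occurred for 14.7% and 22.9%, and the NF-kB motif for 11.8% and 4.46%. Genes with more starts have more windows to hold a motif. A match describes the letters and is not a binding site.

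The receptor chains and the early kinases did not pass in either fit. Cd79a and Cd79b, which carry the signalling motifs of the receptor, differed between zones by 0.03 ± 0.36 and -0.06 ± 0.11 (SE). The Src family kinase Blk differed by 0.01 ± 0.17, Btk, the Tec family kinase that activates Plcg2, by 0.04 ± 0.15, and Syk by -0.22 ± 0.19. Fyn, a further Src family kinase, had the largest SE of the kinases, with a zone difference of 0.63 ± 0.28 (SE) made up of 1.18, 0.75 and -0.05 in the 3 sets (adjusted p = 0.684). Its set 3 value rests on the high-affinity LZ array that stood apart, where Fyn was at 7.67.

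Further down the pathway, Prkcb, the protein kinase C beta that diacylglycerol activates, had the smallest unadjusted p, without the block, of the genes that passed in neither fit. Its values were 9.91, 9.65 and 9.38 in high-affinity LZ cells and 10.20, 10.01 and 9.93 in low-affinity LZ cells, against 9.08, 9.36 and 9.09 in high-affinity DZ cells and 9.62, 9.54 and 9.52 in low-affinity DZ cells. Zones were separate within each affinity. Prkcb was 0.48 ± 0.12 (SE) higher in LZ cells, with 0.71, 0.38 and 0.35 by set, and did not pass in either fit (adjusted p = 0.152, and 0.0701 with the block). It did pass with the block once the high-affinity LZ array of set 3 was left out, a fit chosen after seeing the data (adjusted p = 0.049), and that fit called 7 of 38 genes, all higher in LZ cells, while Akt1 missed it at 0.0653. Malt1 and Bcl10, which join Carma1 in the complex that activates NF-kB, differed by -0.15 ± 0.28 and -0.02 ± 0.15 (SE).

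Of the calcium and NFAT genes, 0 of 6 passed in either fit and 5 of 6 had positive differences. Itpr2, the receptor that releases stored calcium, differed by 0.42 ± 0.12 (SE, adjusted p = 0.283), Stim1, the sensor that refills the stores, by 0.33 ± 0.15, and Nfatc2, a transcription factor that calcineurin activates, by 0.31 ± 0.12. The other 3, Nfatc1, Nfatc3 and the calcineurin subunit gene Ppp3ca, lay between -0.07 and 0.12. The exchange factor genes Vav1, Vav2, Rasgrp1, Rasgrp3 and Sos1 lay between -0.12 and 0.18. Of the genes that end the signal, Ptpn6, the phosphatase SHP-1, differed by 0.43 ± 0.14 (SE, adjusted p = 0.34, and 0.0554 with the block), with 0.37, 0.48 and 0.45 by set. Inpp5d, the lipid phosphatase SHIP-1, and the ubiquitin ligases Cbl and Cblb lay between -0.02 and 0.25.

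**Figure D3:**
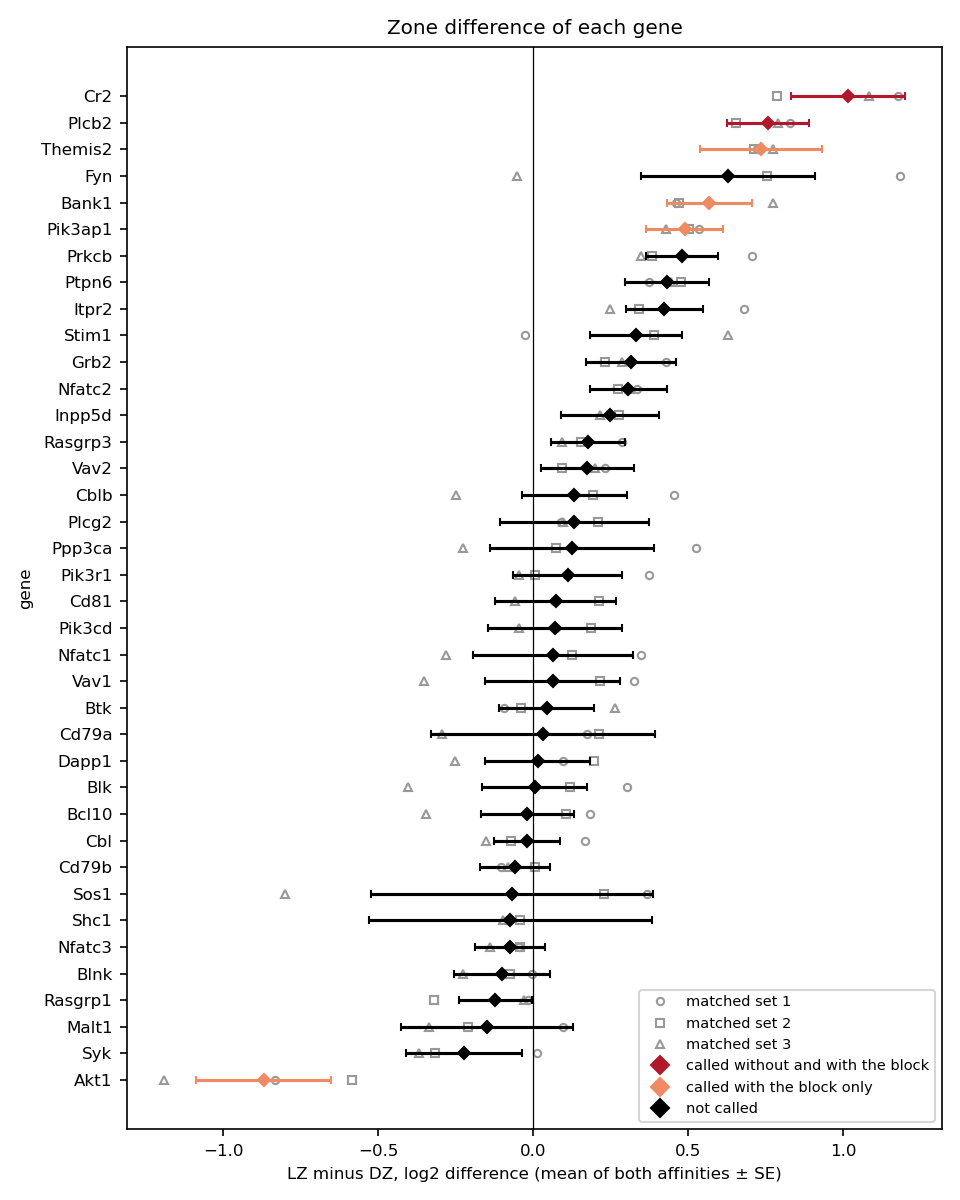
LZ minus DZ difference on the log2 scale (horizontal axis) of each tested gene, ordered by size. Diamonds are the mean over both affinities with its SE, grey symbols are the 3 matched sets, and colour gives the calls. The 5 genes that rose lie at 0.49 to 1.02 and Akt1 at -0.87, and for each of these 6 the 3 sets share a sign.

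Within high-affinity cells alone, 0 of 38 genes passed between zones in either fit, where limma called 0.0357% of all genes without and 0.0803% with the block, and 5 of 38 had an unadjusted p below 0.05 by limma, as did 4.53% of all genes, with 10 of 38 and 8.09% in the fit with the block. Within low-affinity cells, 0 of 38 passed without the block, where 0.0357% of all genes were called, and 2 of 38 with it, where 0.223% were, while 11 of 38 and 4.69% of all genes had an unadjusted p below 0.05 without it, and 13 of 38 and 7.73% with it. Those 2 were Themis2, at 0.94 ± 0.28 (SE, adjusted p = 0.608, and 0.0418 with the block), and Plcb2, at 0.88 ± 0.19 (0.229, and 0.0406 with the block). Each blocked call was kept in 1 of 12 fits that left out an array. All 3 LZ arrays exceeded all 3 DZ arrays for 12 genes in low-affinity cells, where 5.41% of all genes did so, and for 5 in high-affinity cells, where 3.72% did. Plcb2, Bank1, Prkcb, Itpr2 and Cr2 did so at both affinities. The high-affinity difference of Cr2 was 1.12 ± 0.26 and its low-affinity difference 0.91 ± 0.26 (SE), and the interaction of 0.21 ± 0.37 did not pass (adjusted p = 1).

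Between affinities, 0 of 38 genes passed the test after adjustment, and 37 of 38 had a negative difference, high-affinity less low-affinity cells, over both zones. Over both zones, limma called 0 of 11206 genes (0%) with or without the block, in LZ cells 0 (0%) and in DZ cells 0 (0%). At an unadjusted p below 0.05, 588, 466 and 247 genes (5.25%, 4.16% and 2.2%) passed in these 3 comparisons without the block, among them 9, 7 and 3 of the 38. With the block, 1059, 891 and 597 genes (9.45%, 7.95% and 5.33%) did, among them 13, 15 and 7 of the 38. Negative differences over both zones were found for 50.4% of all genes and 57.3% of the genes that passed the stricter filter on dim values, as 36 of the 38 did. The median difference was -0.23 for the 38 genes and -0.00169 for all genes. B cell markers were also lower at high affinity, with 6 of 6 differences negative (median -0.19, Cd79a and Cd79b included), as were 3 of 4 germinal centre markers (median -0.20, and 4 of 4 with a median of -0.24 in LZ cells), with 0 called. Whether the pathway differs from these markers was not tested. Shc1 was the exception, at 0.35 ± 0.46 (SE). Genes read from one array share its errors, so these signs are not independent.

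In LZ cells, 36 of 38 differences were negative (50.3% of all genes, and 55.5% of those that passed the stricter filter). Their median was -0.33, with set medians of -0.24, -0.24 and -0.49, and 26 of 38 were negative in all 3 sets (16.7% of all genes). In DZ cells, 29 of 38 were negative (49.6% of all genes, and 54.7% of those that passed the stricter filter). Their median was -0.12, with set medians of -0.36, 0.00345 and -0.05. All 3 high-affinity arrays lay below all 3 low-affinity arrays for 13 of 38 genes in LZ cells, where 4.49% of all genes did so, and for 5 of 38 in DZ cells, where 3.86% did. The 13 were Fyn, Btk, Bank1, Pik3ap1, Plcb2, Vav2, Pik3cd, Pik3r1, Prkcb, Rasgrp1, Stim1, Cbl and Cblb, and the 5 were Fyn, Prkcb, Rasgrp3, Itpr2 and Cbl. None of the 38 genes separated in the opposite direction in either zone, where 4.32% and 3.29% of all genes did. Without the high-affinity LZ array of set 3, 34 of 38 differences in LZ cells were negative, with a median of -0.30. The DZ count moved more with single arrays: 21 of 38 were negative without the high-affinity DZ array of set 1 and 35 of 38 without that of set 3.

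The mean of the 38 centred genes on each array shows the same pattern. It was 0.06, -0.11 and -0.17 in high-affinity LZ cells and 0.25, 0.14 and 0.32 in low-affinity LZ cells, and these groups do not overlap. In DZ cells it was -0.34, -0.16 and -0.01 at high affinity and 0.09, -0.18 and 0.11 at low affinity, where set 2 goes the other way. The same mean over all genes tested lay between -0.09 and 0.05 on every array. It was lowest on the high-affinity LZ array of set 3 (-0.09) and the high-affinity DZ array of set 1 (-0.08). Each was also the lowest array of its group for the 38 genes. In DZ cells of set 2 it was 0.03 at high and -0.06 at low affinity. The part of such array-wide shifts in the pattern of the 38 genes was not tested.

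Marker levels of other cells also differed with affinity in LZ cells, though 0 of these markers passed the test. Of the granulocyte markers, 5 of 6 tested were lower in high-affinity LZ cells (median -0.73, with -0.19, 0.05 and -1.91 in the 3 sets) and 6 of 6 were higher in high-affinity DZ cells (median 0.37, with 0.10, 0.88 and 0.60). The mean level of that list was 5.28 to 6.83 in high-affinity LZ, 5.41 to 6.77 in low-affinity LZ, 5.34 to 7.01 in high-affinity DZ and 5.44 to 6.41 in low-affinity DZ cells, and of its 8 genes S100a9 was at or above the array median on 12 arrays, S100a8 on 11, Camp on 8, Ngp on 6, Elane on 4 and Mpo on 3, while Ly6g and Ltf were below it on all 12. Macrophage markers were lower for 3 of 4 in high-affinity LZ cells (median -0.38), with list means of 5.05 to 5.48 at high and 5.05 to 5.86 at low affinity, and set medians of -0.08, -0.10 and -0.73. Cd68 was at or above the median on all 12 arrays, at a mean of 7.46 in high-affinity and 8.08 in low-affinity LZ cells, Lyz2 on 7, C1qa on 5, C1qb on 4 and Fcgr1 on 1, and Csf1r, Adgre1 and Mertk on 0. T cell markers were lower for 2 of 2 tested, Cd3e and Cd8a, each at or above the median on 7 arrays, with Cd3g on 2, Cd3d and Cd28 on 1 and Cd4 on 0. T cell list means were 4.66 to 5.06 in high-affinity LZ cells and 4.80 to 6.17 in low-affinity LZ cells, with the low-affinity array of set 3 highest. The part of these cells in the affinity differences was not tested.

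Of single genes in LZ cells, Plcb2 gave the smallest p, with a difference of -0.62 ± 0.19 (SE, adjusted p = 0.999) and set values of -0.64, -0.83 and -0.40. Its array values are given above, and the high-affinity arrays all lay below the low-affinity ones. Syk, the kinase that docks on the phosphorylated receptor chains, had values of 9.32, 8.73 and 8.78 in high-affinity LZ cells and 9.63, 9.29 and 9.95 in low-affinity LZ cells. One high-affinity array, that of set 1, exceeded 1 low-affinity array, so the groups overlap, and the difference was -0.68 ± 0.26 (SE) with -0.31, -0.57 and -1.17 by set. In DZ cells Syk had 9.12, 9.30 and 9.98 in high-affinity DZ cells and 9.80, 9.35 and 9.48 in low-affinity DZ cells, with groups that overlap and a difference of -0.07 ± 0.26 (SE).

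Fyn had values of 9.37, 9.20 and 7.67 in high-affinity LZ cells and 9.81, 9.54 and 9.83 in low-affinity LZ cells. The high-affinity array of set 3 lay far below the other 2, and all 3 high-affinity arrays were under the low-affinity ones. The LZ difference of -0.98 ± 0.40 (SE) became -0.44 without that array. In DZ cells the values were 7.63, 8.50 and 8.51 in high-affinity DZ cells and 9.19, 8.74 and 9.09 in low-affinity DZ cells, where set 1 was the low array and the groups again did not overlap (-0.79 ± 0.40, SE). Itpr2 had values of 9.21, 8.71 and 8.82 in high-affinity LZ cells and 9.63, 9.37 and 9.06 in low-affinity LZ cells, against 8.56, 8.55 and 8.49 in high-affinity DZ cells and 8.92, 8.85 and 8.90 in low-affinity DZ cells. It was lower at high affinity in each set, with differences of -0.44 ± 0.18 in LZ and -0.35 ± 0.18 in DZ cells (SE), and the LZ groups overlap while the DZ groups do not. Prkcb, described above, differed by -0.40 ± 0.16 in LZ and -0.39 ± 0.16 in DZ cells (SE), with separate groups in both zones, and the LZ difference was -0.27 without the high-affinity array of set 3.

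In DZ cells, Bank1 gave the smallest p, at -0.52 ± 0.19 (SE), followed by Prkcb and Rasgrp3. Rasgrp3, an exchange factor that diacylglycerol recruits to activate Ras, had 10.54, 10.57 and 10.24 in high-affinity DZ cells and 10.83, 10.94 and 10.74 in low-affinity DZ cells. The DZ groups were separate, with a difference of -0.38 ± 0.17 (SE), whereas in LZ cells the values were 10.95, 10.84 and 10.52 in high-affinity LZ cells and 10.98, 10.98 and 10.64 in low-affinity LZ cells and the groups overlapped (-0.10 ± 0.17). Cr2 differed by -0.57 ± 0.26 in DZ and -0.36 ± 0.26 in LZ cells (SE), with the lowest DZ value, 8.62, on the high-affinity array of set 3. All these affinity differences had adjusted p of 0.999 in LZ and 1 in DZ cells, and 0.485 or more in LZ and 0.854 or more in DZ cells with the block. The sort gene Cd86 was also lower at high affinity in DZ cells, at 9.42 against 10.23 (-0.81), and less so in LZ cells (-0.14). Cxcr4 differed by 0.04 in DZ cells. Bank1, Prkcb and Cr2 were, as Cd86 was, higher in LZ than in DZ cells. The part of the zone gate in these affinity differences was not tested.

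The interaction asks whether the affinity difference depends on the zone, as the LZ value less the DZ value. It was called for 0 of 38 and 0 of 11206 genes (0%) with or without the block, with 177 genes (1.58%) and 0 of the 38 at an unadjusted p below 0.05 by limma, and 408 genes (3.64%) and 2 of the 38 with the block. These 2 were Inpp5d, at -0.67 ± 0.32 (SE, unadjusted p = 0.0579, and 0.0153 with the block), and Plcg2, at -0.60 ± 0.48 (SE, 0.237, and 0.0244 with the block). The values of Inpp5d were 10.14, 9.88 and 10.09 in high-affinity LZ cells and 10.46, 10.08 and 10.71 in low-affinity LZ cells, against 10.00, 9.86 and 10.51 in high-affinity DZ cells and 10.10, 9.55 and 9.86 in low-affinity DZ cells. High- and low-affinity arrays overlapped in both zones. The affinity difference was -0.38 in LZ and 0.29 in DZ cells, and the interaction was negative in 3 of 3 sets (-0.22, -0.51 and -1.27). Stim1 had 7.64, 7.39 and 7.85 in high-affinity LZ cells and 7.93, 8.06 and 7.89 in low-affinity LZ cells, against 7.87, 7.52 and 7.32 in high-affinity DZ cells and 7.75, 7.15 and 7.17 in low-affinity DZ cells. Low-affinity LZ cells were above the other groups on every array. High-affinity cells were lower in 3 of 3 sets in LZ (-0.29, -0.67 and -0.03) and higher in 3 of 3 in DZ cells (0.12, 0.37 and 0.15). The interaction was -0.55 ± 0.30 (SE), while that of Syk was -0.61 ± 0.37 (SE).

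**Figure D4:**
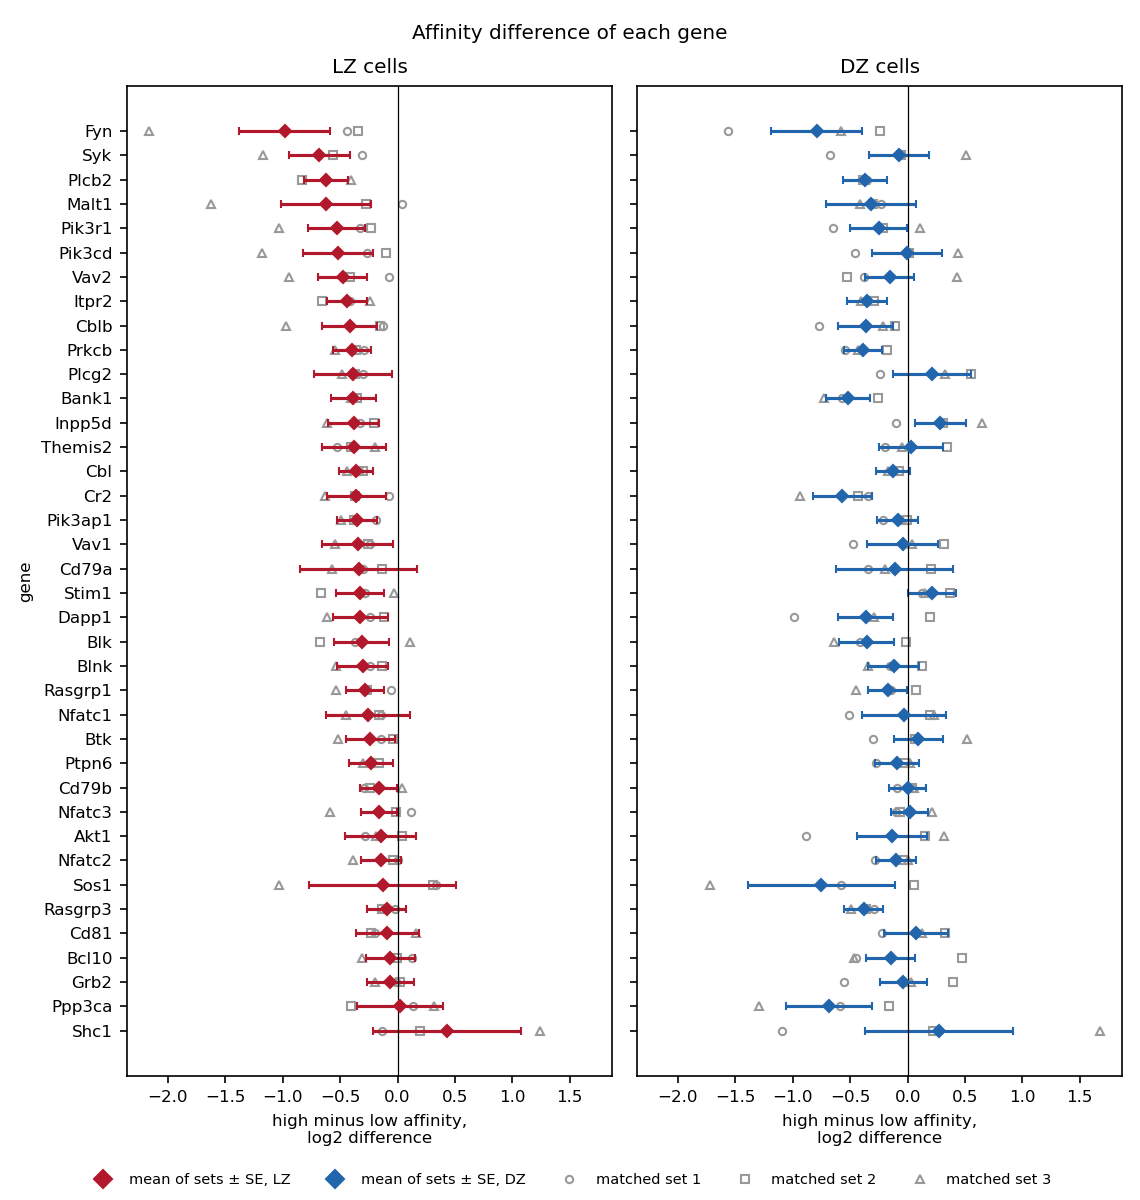
High minus low affinity difference on the log2 scale of each tested gene in LZ cells (left) and DZ cells (right), ordered by the LZ value. Diamonds are means with their SE and grey symbols are the 3 matched sets. Most LZ diamonds lie left of 0, down to -0.98 for Fyn, and none of the differences passed the test.

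Part of the variation of these genes followed the matched set. Over the 12 arrays, the set accounted for a median of 27.6% of the variance of the 38 genes (28% for all genes), zone for 5.35% (4.42%) and affinity for 11.5% (5.27%). The set was the largest of these sources for 16 of the 38 genes (42.1%, against 64.5% of all genes), zone for 12 (31.6%, against 14.4%) and affinity for 10 (26.3%, against 13.5%). The remainder, left out of this ranking, held a median of 22.7% for the 38 genes and 41.4% for all genes. The set has more levels than zone or affinity, which raises its share even without an effect. Cd79a was 1.20 higher in set 3 than in the mean of sets 1 and 2, and the set held 88.9% of its variance. The adaptor gene Shc1 was 1.26 higher in set 3, and Sos1, the exchange factor that Grb2 carries, was at -1.29. The paracaspase gene Malt1 was at -0.74 and Nfatc1 at 0.77 in the same comparison. Sos1 reached its lowest value, 5.16, on the high-affinity LZ array of set 3. The set also held 82.1% of the variance of Cd81, 75.7% of that of Nfatc1 and 74.5% of that of Plcg2, whereas 87.6% of that of Bcl10 lay with none of the factors.

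**Figure D5:**
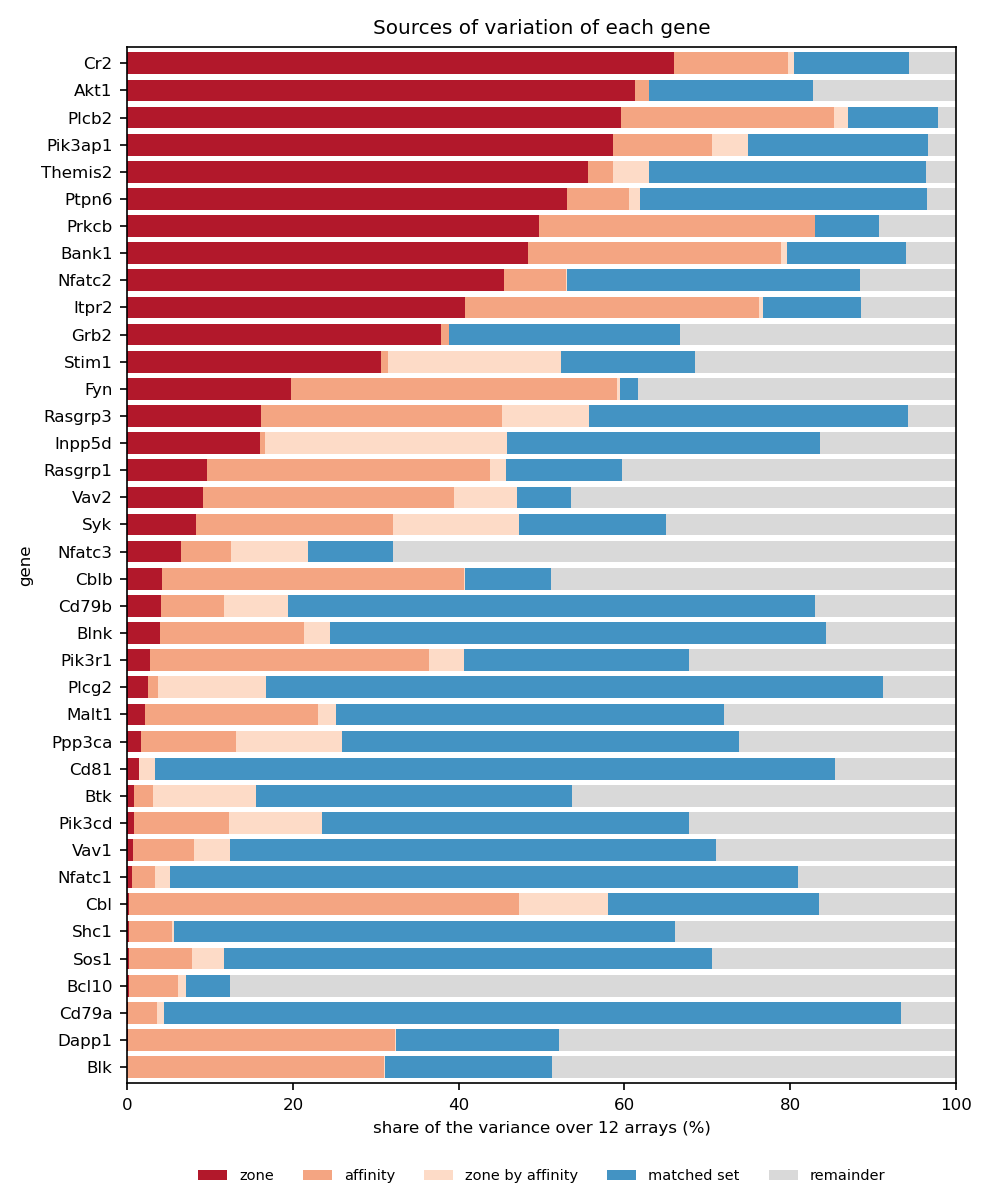
Share of the variance over 12 arrays (horizontal axis, in %) that lies with zone, affinity, their interaction, the matched set and the remainder, for each tested gene, ordered by the zone share. Cr2 (66%), Akt1 (61.3%) and Plcb2 (59.6%) have the largest zone shares, and Cd79a (88.9%) the largest set share.

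Other genes of the pathway were examined as lists chosen by role, also with earlier results of these data known. Of 114 genes, 89 were tested, and 3 were called between zones, all higher in LZ cells, with 6 in the fit with the block, where 0.419% of all genes were called without and 1.2% with the block. The median difference of the 89 was 0.13, with 61 positive (68.5%, against 49% of all genes). Cd83, a surface activation marker, had values of 9.82, 9.47 and 9.76 in high-affinity LZ cells and 10.12, 9.85 and 10.14 in low-affinity LZ cells, against 7.99, 7.93 and 8.59 in high-affinity DZ cells and 8.30, 8.24 and 8.47 in low-affinity DZ cells. Every LZ array exceeded every DZ array, and the difference was 1.60 ± 0.14 (SE, adjusted p = 0.00069). Egr2, a transcription factor induced by receptor signals, differed by 1.51 (adjusted p = 0.00471), and the inhibitory receptor gene Cd72 by 1.30 (0.0234). With the block, Egr1 (1.11, adjusted p = 0.0124), Pecam1 (0.75, 0.0405) and Cd22 (0.51, 0.0443) rose as well. These genes belong to the lists of antigen receptor response genes, where 2 of 14 were called, 3 with the block, and of membrane regulators, where 1 of 11 was called and 3 with the block, beside the same shares of all genes. Among the other kinases and adaptors (17 tested), PI3K and Akt genes (13), Carma1 and IKK genes (8), Ras and MAP kinase genes (8), calcium and calcineurin genes (11) and brakes (7), 0 were called in either fit, and their leading genes by p were Lat2 (0.50), Pik3r3 (0.81), Tnfaip3 (0.47), Nf1 (0.33), Orai1 (0.35) and Ptpn2 (0.54).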

How the data were processed

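RNA of sorted germinal centre B cells was amplified, labelled with biotin and hybridised to single-colour arrays, 12 in all and 3 per group. The authors deposited log2 values per probe set that had been normalised by RMA, with mm8 as the genome build, per the submitters' processing notes; the settings are not given in the sources used here. Probe sets were named from the platform annotation: of 28853, 21789 had 1 gene symbol, 1621 several and 5443 none, and per gene the one with the highest mean was kept, which left 19938 genes. Genes at or above the array median on at least 3 of 12 arrays were tested (11206), and 8732 dimmer ones were not.

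limma 3.58.1 in R 4.3.3 fitted the 4 group means over all 12 arrays (lmFit and eBayes), with Benjamini-Hochberg adjustment over all genes tested and calls at an adjusted p below 0.05. Signal near background and the 3 arrays a group limit the precision. The matched sets come from the suffix shared in the sample descriptions, and 17 of 18 same-set pairs of arrays deviated together with a correlation above 0.1 (median 0.41, lowest -0.07). A fit with the set as a block is therefore given beside the results. Named members are those called in either fit and those with the smallest p in each comparison, and of the other pathway genes those called or, per list, the 1 with the smallest p. Alternatives covered the block, filters, normalisation, weights and arrays left out. The fit without the block was tested on simulated data with independent arrays and no matched sets, and the fit with the block was not. The members and lists were chosen with earlier results of these data known.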

Additional observations from a re-analysis of the deposited data

How the results depend on the processing

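Over both affinities, limma called 2 of 38 genes between zones. With the replicate block (the matched set) the count was 6, and with the set as a random block 5. It was 1 without the filter on dim genes, with the stricter filter, after quantile normalization and after array median centring. The stricter filter leaves out Plcb2 itself, and under the other 3 the call of Cr2 was lost, at adjusted p of 0.0539, 0.0543 and 0.05. With array weights, whose estimation stopped before it converged and which ran from 0.213 for the high-affinity LZ array of set 3 to 9.15 for that of set 2, the count was 8. Leaving out 1 array at a time gave 0 to 2. Leaving out the high-affinity LZ array of set 3 with the replicate block, chosen after seeing the data as were all blocked fits without 1 array, gave 7. The cause of these changes was not tested.

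In high-affinity cells alone, the count between zones was 0 and 1 with array weights. In low-affinity cells it was 0, with 2 under the replicate block, 2 with the block and without the high-affinity LZ array of set 3, and 1 with array weights. Between affinities it was 0, and array weights gave 2 lower genes over both zones and 2 in LZ cells (Plcb2 and Itpr2). The block changed no other call. No difference of a gene called, or picked for its small p, in a comparison or list changed its sign there under an alternative. Other pathway genes did change sign. With 1 array left out, 10 to 18 of those tested had negative differences between zones over both affinities. Between affinities in DZ cells, 21 to 35 of those tested were negative. Dim probe sets such as that of Vav3 have no measured difference, and 3 arrays a group limit the precision of the rest.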

Other observations

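The other genes of the pathway were lower in high-affinity LZ cells in most lists, with 0 called in either fit. Of 89 tested, 63 had negative differences, with a median of -0.16, among them 11 of 11 membrane regulators (median -0.31) and 16 of 17 other kinases and adaptors (median -0.24). Of the genes that antigen receptor signals induce, 10 of 14 had positive differences in LZ cells (median 0.12, with set medians of 0.05, -0.02 and 0.06) and 9 of 14 in DZ cells (median 0.08, with -0.24, 0.23 and 0.12), so the sets differ in sign. Positive differences were found for 49.7% of all genes in LZ and 50.4% in DZ cells. Plasma cell markers were higher in high-affinity cells for 4 of 4 genes in LZ cells (median 0.25) and 4 of 4 in DZ cells (median 0.46), with none called. Their set medians were 0.05, 0.06 and 0.41 in LZ cells and 0.30, 0.46 and 0.63 in DZ cells. Irf4 counts in both the plasma cell markers and the genes that antigen receptor signals induce. These lists share arrays with the 38 genes described above, and the differences between lists were not tested.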
